A study of Homo sapiens with 8 samples.

Results

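The nuclear genes of respiratory complexes II to V were examined in A549 cells, an established human lung carcinoma line, on 8 one-colour Agilent whole genome arrays. The genes were chosen by symbol: the succinate dehydrogenase genes SDHA to SDHD and their assembly factors SDHAF1 to SDHAF4, the UQCR and UQCC genes with CYC1, the COX genes numbered from COX4I1 to COX20, and the ATP5F, ATP5M and ATP5P genes. The annotation held 69 such protein-coding genes, and 66 of them were matched to a probe, out of 19056 genes matched on the arrays. ATP5MF-PTCD1, UQCC4 and UQCRHL had no matched probe, and the subunits encoded by the mitochondrial genome were not analysed here. One series of 4 arrays held a vehicle control and cells given 1.25, 5 or 20 μg/mL of EEDS, an ethanol extract of Descurainia sophia seeds. The other held its own vehicle control and cells given 3.75, 15 or 60 nM of helveticoside, a cardiac glycoside purified from that extract, a class of compound that inhibits the sodium pump. The exposure is 24 h in the paper and 48 h in the sample labels. Each array carried RNA pooled from 3 cultures, so every dose had 1 array. There is thus no replicate error, and single doses carry no p-value. The agent and the array series cannot be told apart.

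Oxidative phosphorylation runs on 5 protein complexes of the mitochondrial inner membrane. Complex II, succinate dehydrogenase, feeds electrons from succinate into ubiquinone. Complex III passes them from ubiquinol to cytochrome c, complex IV passes them from cytochrome c to oxygen, and complex V, the ATP synthase, uses the proton gradient built by complexes I, III and IV to make ATP. Nearly all of their subunits are encoded in the nucleus, as are the assembly factors that insert heme, copper, iron-sulfur clusters and flavin. Many of these genes have compact promoters with sites for NRF1 (nuclear respiratory factor 1), GABP of the ETS family and YY1.

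Promoters are shown for 5 of the genes over 1.5-fold higher or lower at both top doses, picked after their values were seen. They set out which of the 5 carry the motifs of these factors and which do not. The sequences are from RefSeq (GRCh38.p14), read 5′ to 3′ on the gene's strand, and run over the 250 bases before the annotated start. Capitals mark matches, on either strand, to GCGCATGCG (the NRF1 core), CCGGAAG (ETS and GABP), AAGATGGC (YY1), GGGCGG (the SP1 GC box) and TATAAA (the TATA box). A match to CCGGAAG can share its last 3 bases with a match to AAGATGGC.
SDHD, chr11:112086623-112086872, + strand: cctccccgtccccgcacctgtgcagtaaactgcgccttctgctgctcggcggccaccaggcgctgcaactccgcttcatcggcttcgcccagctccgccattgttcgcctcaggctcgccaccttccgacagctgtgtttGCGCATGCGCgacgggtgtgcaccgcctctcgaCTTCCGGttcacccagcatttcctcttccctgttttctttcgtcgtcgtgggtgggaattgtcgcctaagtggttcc
COX17, chr3:119677407-119677656, - strand: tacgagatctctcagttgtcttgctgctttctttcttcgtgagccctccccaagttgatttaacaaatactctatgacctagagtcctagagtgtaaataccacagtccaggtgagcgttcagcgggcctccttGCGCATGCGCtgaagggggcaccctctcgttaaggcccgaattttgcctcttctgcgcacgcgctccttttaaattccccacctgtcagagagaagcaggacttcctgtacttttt
COX10, chr17:14069254-14069503, + strand: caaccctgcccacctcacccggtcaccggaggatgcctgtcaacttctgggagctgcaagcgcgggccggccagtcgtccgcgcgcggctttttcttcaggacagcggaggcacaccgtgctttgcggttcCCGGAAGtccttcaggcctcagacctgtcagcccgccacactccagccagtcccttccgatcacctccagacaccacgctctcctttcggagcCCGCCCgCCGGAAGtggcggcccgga
SDHAF3, chr7:97117448-97117697, + strand: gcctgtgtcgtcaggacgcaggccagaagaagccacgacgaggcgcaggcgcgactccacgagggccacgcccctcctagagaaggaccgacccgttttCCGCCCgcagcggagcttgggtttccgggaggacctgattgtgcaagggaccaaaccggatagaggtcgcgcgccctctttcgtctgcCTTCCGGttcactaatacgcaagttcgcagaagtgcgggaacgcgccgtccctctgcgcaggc
UQCC6, chr12:103957216-103957465, - strand: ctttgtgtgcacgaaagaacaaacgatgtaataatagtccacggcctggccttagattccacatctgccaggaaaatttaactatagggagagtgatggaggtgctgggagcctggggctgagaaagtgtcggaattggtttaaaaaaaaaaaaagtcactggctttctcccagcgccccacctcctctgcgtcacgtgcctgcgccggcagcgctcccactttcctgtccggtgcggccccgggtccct

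In SDHD and COX17 the NRF1 core lay in a palindrome, so the run of capitals matches on both strands. SDHD also held an ETS match on the opposite strand, COX10 held 2 ETS matches on its own strand, and SDHAF3 held 1 on the opposite strand. UQCC6 held none of the 5 motifs in this stretch. SDHAF1 and ATP5F1E, also over 1.5-fold higher at both top doses but not shown, held only GC box matches in theirs. Over windows of 300 bases that also include 50 bases after the start, the NRF1 core was found in 8 of 53 genes of complexes II to V with a promoter in the table, 15.1%, against 2.85% of 14423 promoters of protein-coding genes on the array. The ETS motif was in 37.7% of these genes against 14.8% of all promoters, and the YY1 motif in 13.2% against 4.1%. The GC box was in 60.4% against 60.2%, and the TATA box in 9.43% against 9.26%. These shares describe letters in the windows only.

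The arrays held 43118 probe spots each, with a median signal of 182 to 278 over a local background of 27 to 34, no saturated spot, and 246 to 331 outlier spots that were left out. The scanner software called 63.3% to 64.9% of the probes well above background on the EEDS arrays and 54.5% to 59.5% on the helveticoside arrays. The median SD between spots of a probe was 0.06 in log2 units, a measure of error inside an array that leaves out all other sources. All 6 epithelial markers fixed for A549 were well above background on all 8 arrays, with log2 ratios from -2.70 (CDH1) to 0.05 (EPCAM) at the top dose of EEDS and from -2.71 (CDH1) to 0.17 (CLDN7) at that of helveticoside. Of 14 measured markers of other cell types, 9 were not well above background on any array, 4 (PTPRC, COL1A1, CDH5 and SNAP25) were so on all arrays, and COL3A1 on 1, and their part in the results was not tested. Array signals are relative levels, so that fewer cells of a kind and less RNA per cell cannot be told apart.

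All 66 genes passed the signal limit of 1.4 times the local background, and 61 were well above background on all 8 arrays. COX18, COX7A1, COX7B2 and COX8C were not well above background on any array, and COX4I2 was so only at 1.25 μg/mL EEDS. Values below are log2 of the quantile-normalized signal, or log2 ratios of a treated array to the vehicle array of its own series, where 1 is a 2-fold difference. A fold of 1.5 was used to count genes. Between the vehicle arrays, the 66 genes differed by a median of -0.01 (helveticoside minus EEDS) with an SD of 0.43 over genes, and 3 were over 1.5-fold higher and 4 over 1.5-fold lower in the helveticoside series.

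More of the 66 genes were above than below their vehicle on every treated array, and the differences were mostly small. The median log2 ratio was 0.18, 0.22 and 0.18 at 1.25, 5 and 20 μg/mL EEDS and 0.11, 0.18 and 0.10 at 3.75, 15 and 60 nM helveticoside, whereas the median of all 19046 genes lay between -0.04 and 0.02. At 20 μg/mL EEDS, 44 of the 66 genes were higher than on the vehicle array and 21 lower, beside 10412 and 8631 of all 19046 genes. At 60 nM helveticoside 42 were higher and 24 lower, beside 9340 and 9703 of all genes. Under scaling of every array to its 75th percentile, used instead of quantile normalization, the median of all genes moved to -0.20, -0.21 and -0.36 for EEDS and to 0.14, -0.12 and -0.18 for helveticoside at the rising doses. Relative to these, the median of the 66 genes was 0.33, 0.65 and 0.60 higher for EEDS and 0.18, 0.60 and 0.61 higher for helveticoside.

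Few of the genes were past 1.5-fold, and those that were lay mostly on the higher side. At 1.25 μg/mL EEDS, 10 of the 66 genes were over 1.5-fold higher, against 11.9% of all genes, and 0 were over 1.5-fold lower, against 11.3%. At 5 μg/mL, 12 were higher against 16.3% of all genes, and 1 was lower against 17%, which was COX18, a dim gene. At 20 μg/mL, 14 were higher against 23.1% and 3 were lower against 23.2%. The counts on the lower side thus fell short of the share of all genes at each of these doses, while those on the higher side were 15.2%, 18.2% and 21.2% of the 66 genes. Dim genes were among the latter: of genes well above background on all arrays, 7 of 61 were higher at 1.25 μg/mL, beside 1411 of 11493, and 10 at 5 μg/mL, beside 2056.

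The helveticoside doses were not compared in strength with those of EEDS, so its counts are given by dose only. At 3.75 nM, 0 of the 66 genes were over 1.5-fold higher, against 7.33% of all genes, and 1, the dim COX4I2, was lower, against 9.7%. At 15 nM, 6 were higher against 14.8% and 0 were lower against 16.1%. At 60 nM, 11 were higher against 20.5% and 3 were lower against 20.3%. These last counts were 27 and 2 with scaling to the 75th percentile, which moved the median of all genes at 60 nM to -0.18. The shares of all genes past 1.5-fold under that scaling are not given here. Among genes well above background on all arrays, 13 of 61 were higher at 20 μg/mL EEDS, against 25.8% of 11493 genes, and 3 were lower, against 26.9%. For 60 nM helveticoside these numbers were 10 of 61 against 21.9%, and 3 against 23%. Past 2-fold, 1 gene was higher (UQCC6) and 1 lower (SDHAF3) at 20 μg/mL EEDS, against 13.3% and 14.5% of all genes. At 60 nM helveticoside, UQCC6 and COX10 were over 2-fold higher, against 10.8% of all genes, and SDHAF3 was over 2-fold lower, against 12.8%.

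**Figure D1:**
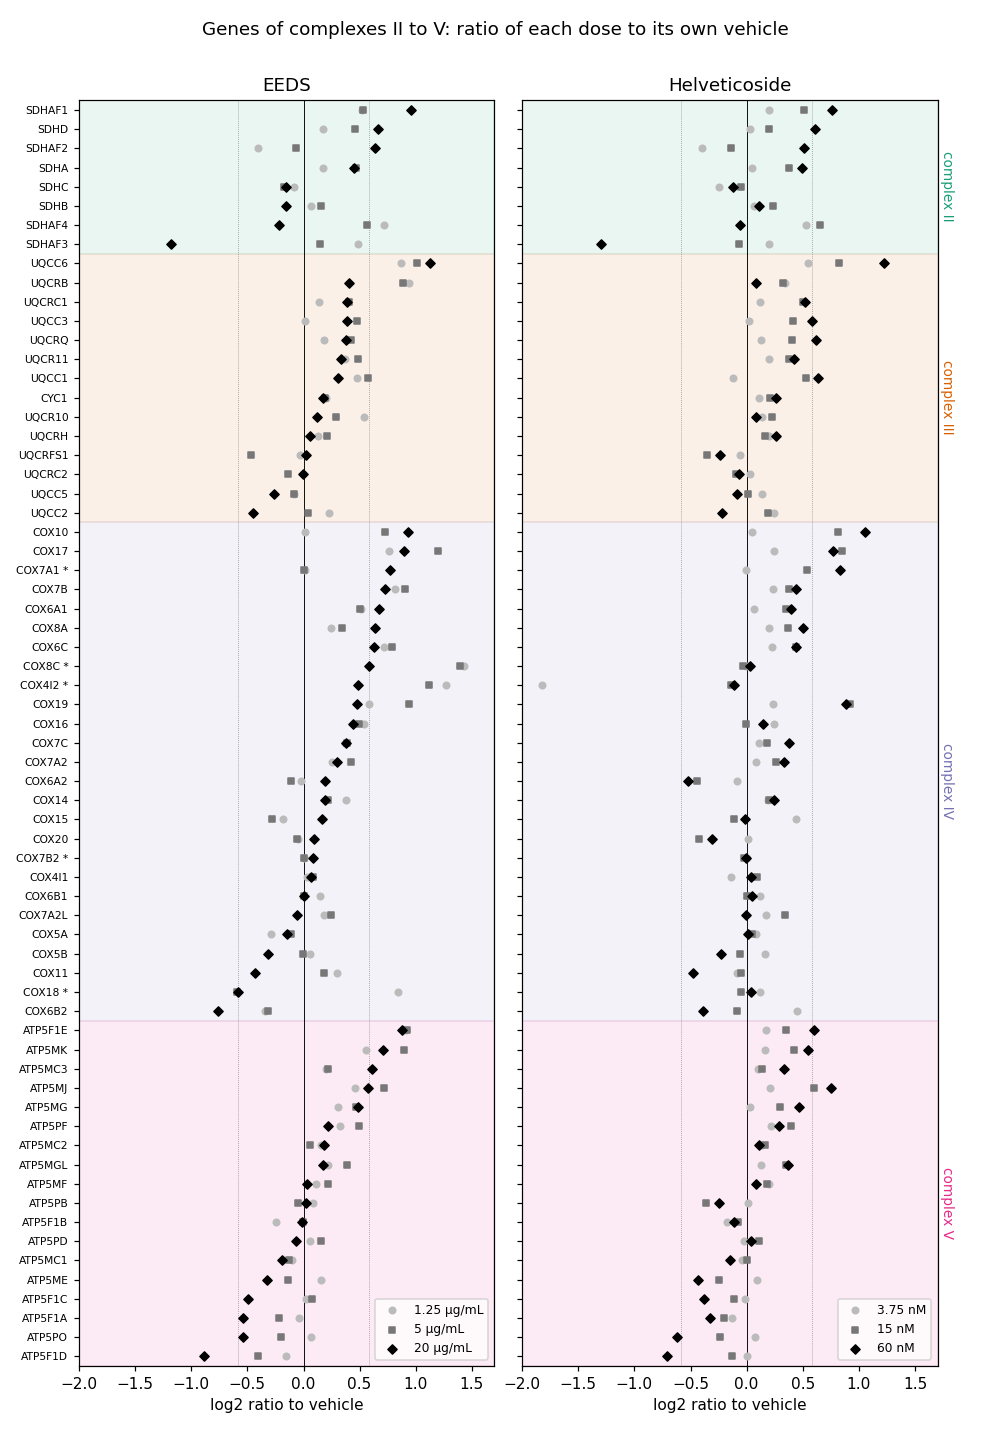
Log2 ratio of each dose to its own vehicle array (horizontal axis) for the 66 genes, 1 per line, grouped by complex and ordered by the ratio at 20 μg/mL EEDS. Light to dark symbols are the rising doses, 1 array each, dotted lines mark 1.5-fold, and an asterisk marks genes not well above background on all arrays. SDHAF3 lies far to the left at the top dose of both agents (-1.18 and -1.30), and UQCC6 far to the right (1.12 and 1.23).

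A dose trend was fitted with limma over the 8 arrays, with vehicle and the rising doses as steps 0 to 3 of each series. A step between doses is 4-fold in concentration, and the scatter of the arrays around the lines takes the place of a replicate error. For EEDS, 4 of the 66 genes rose with dose at an adjusted p under 0.05, against 7.28% of all genes, and 1 fell, against 7.86%. For helveticoside, 4 rose, against 5.5%, and 0 fell, against 5.81%. At an unadjusted p under 0.05, 19 of the 66 genes had a trend with EEDS, against 33.4% of all genes, and 25 with helveticoside, against 29.8%. None of the calls remained when any 1 dose was left out or when each series was fitted alone, and under these settings limma called no gene of the genome. The difference between the 2 slopes passed for 0 of the 66 genes and 0% of all genes by limma, and at an unadjusted p under 0.05 for 0 of the 66 and for 524 of 19046.

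Complex II had the gene with the lowest top-dose ratios, SDHAF3, a gene that rose with both agents, SDHAF1, and one that rose with EEDS, SDHD. Over its 8 genes the median log2 ratio at the top dose was 0.15 for EEDS and 0.30 for helveticoside. Those with the largest differences were not the catalytic subunits but the assembly factors and a membrane anchor.

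SDHAF1, a small protein that helps insert iron-sulfur clusters into SDHB, rose with dose of both agents. Its log2 signal was 12.76 on the EEDS vehicle array and 13.28, 13.28 and 13.71 at the rising doses, and 12.68 on the helveticoside vehicle array and 12.88, 13.19 and 13.44 at its doses. Every treated array was thus above its vehicle, by 1.94-fold at 20 μg/mL EEDS and 1.69-fold at 60 nM helveticoside. The slope per dose step was 0.29 ± 0.05 (SE) for EEDS, with a limma adjusted p of 0.0281, and 0.26 ± 0.05 for helveticoside, with an adjusted p of 0.0408. Both calls were lost with dose on a linear scale.

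SDHAF3, which acts beside SDHAF1 in the maturation of SDHB, took another course. Its signal was 11.07 on the EEDS vehicle array, then 11.56, 11.21 and 9.89 at the rising doses, and 11.13 on the helveticoside vehicle array, then 11.33, 11.07 and 9.83. It was above the vehicle at the lowest dose and 2.26-fold and 2.46-fold below it at the top doses. The trend over dose steps did not pass for SDHAF3 (limma adjusted p of 0.298 for EEDS and 0.293 for helveticoside). With dose on a linear scale it was called as falling with EEDS.

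SDHD, a membrane anchor that holds the ubiquinone site with SDHC, rose with EEDS. Its promoter, printed above, holds an NRF1 core. On the EEDS arrays the signal went from 11.28 through 11.45 and 11.74 to 11.94, and on the helveticoside arrays from 10.86 through 10.89 and 11.06 to 11.47. The slope was 0.23 ± 0.05 per step for EEDS (limma adjusted p of 0.0467) and 0.20 ± 0.05 for helveticoside (0.0726). The EEDS call was lost with the signal as scanned, with normexp correction, with the deposited table and with linear dose. All 3 probes of SDHD were higher at both top doses, with log2 ratios of 0.66 to 0.86 for EEDS and 0.56 to 0.64 for helveticoside. The vehicle arrays differed by -0.42 for the brightest SDHD probe (helveticoside minus EEDS), so the size of its ratios depends on the vehicle used. SDHC, its partner, had -0.15 and -0.12 at the top doses with the brightest probe, while another of its 3 probes had 0.33 and 0.14.

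The other complex II genes did not pass the trend test with the main settings, and SDHA was called with helveticoside under scaling to the 75th percentile. SDHA, the flavoprotein that oxidises succinate, had log2 ratios of 0.45 and 0.49 at the top doses, and SDHB, the iron-sulfur subunit, had -0.16 and 0.11. The 4 probes of SDHA ranged from 0.04 to 0.45 for EEDS and from 0.43 to 0.77 for helveticoside. SDHAF2, which attaches the flavin to SDHA, was below the vehicle at the lowest dose (-0.41 and -0.40) and above it at the top dose (0.64 and 0.51). SDHAF4, which guides flavin-bearing SDHA into the complex, had the reverse course, with 0.72 and 0.53 at the lowest dose and -0.22 and -0.06 at the top dose.

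**Figure D2:**
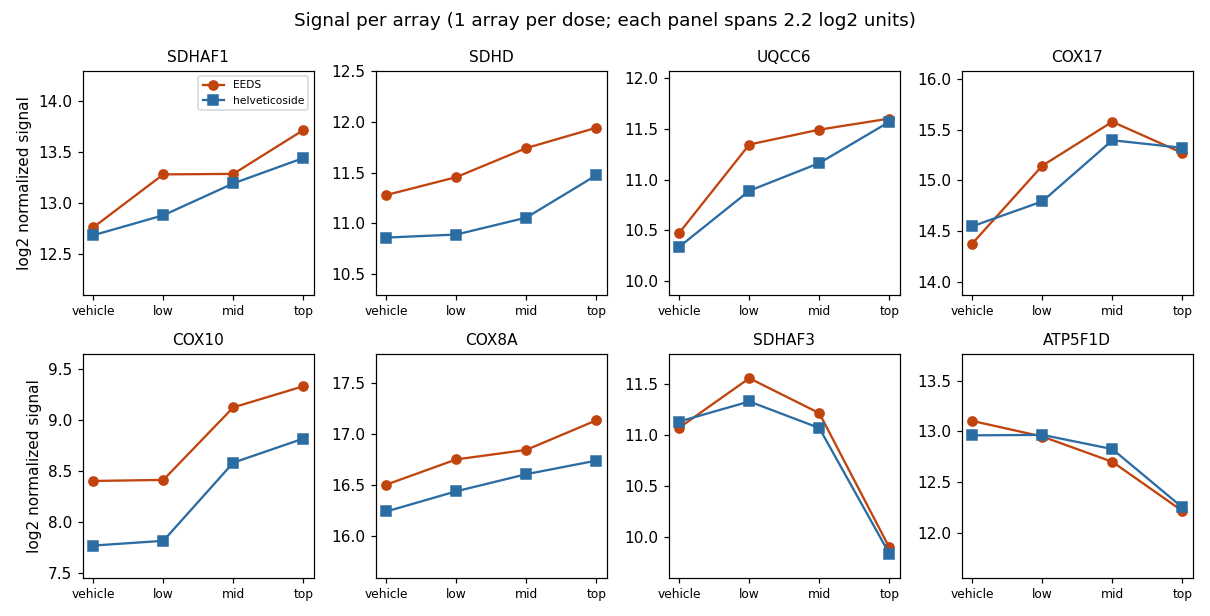
Log2 normalized signal (vertical axis) of 8 genes on the vehicle array and at the low, mid and top dose of each series (horizontal axis). Circles are EEDS and squares helveticoside, each point is 1 array, and every panel spans the same height. SDHAF3 is far lower at the top than at the mid dose in each series (9.89 against 11.21 and 9.83 against 11.07), whereas UQCC6 is above its vehicle at all 3 doses of each agent.

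Complex III genes were mostly higher by their brightest probe. At 20 μg/mL EEDS 11 of its 14 measured genes were above the vehicle and at 60 nM helveticoside 10 were, and the median log2 ratio was 0.24 and 0.26. With the mean of all probes these medians were 0.05 and 0.20, and that of its 5 measured assembly factors at 20 μg/mL turned from 0.31 to -0.09. UQCC6, a small membrane protein needed to assemble complex III, had the highest top-dose ratio of all genes well above background in complexes II to V with either agent. Its signal on the EEDS arrays was 10.48 with vehicle and 11.34, 11.49 and 11.60 at the rising doses, and on the helveticoside arrays 10.34 and then 10.89, 11.16 and 11.57. The increase was thus already 0.87 at the lowest dose of EEDS and 0.55 at that of helveticoside, and reached 2.18-fold and 2.34-fold. The slope was 0.40 ± 0.09 per step for helveticoside, with a limma adjusted p of 0.0494, and 0.35 ± 0.09 for EEDS, with an adjusted p of 0.0552. The EEDS trend was called in 5 alternative settings, while the helveticoside call was lost with normalization within each series, with the deposited table, with linear dose and without limma's trend and robust options.

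UQCRQ, a small subunit of complex III, rose with helveticoside. The signal was 16.81 with vehicle and 16.94, 17.21 and 17.42 at the rising doses, a slope of 0.21 ± 0.04 per step (limma adjusted p of 0.0277). In the EEDS series it was 16.90, 17.08, 17.32 and 17.28, with a slope of 0.14 ± 0.04 and an adjusted p of 0.0551. The EEDS trend was called in 5 alternative settings, while the helveticoside call was lost with scaling to the 75th percentile and with linear dose. The 5 measured small subunits, which include UQCRB, UQCRH, UQCR10 and UQCR11, were all above the vehicle at both top doses with the brightest probe, with medians of 0.34 and 0.26 (0.07 and 0.21 with the mean of all probes). UQCRB and UQCR10 each had a probe that went the other way. The second UQCRB probe was at least 4.02-fold lower at 20 μg/mL EEDS and at least 2.62-fold lower at 60 nM helveticoside, and the third UQCR10 probe had log2 ratios of -0.47 and -0.54.

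The electron-carrying subunits of complex III were close to vehicle at the top doses of EEDS. CYC1, cytochrome c1, had log2 ratios of 0.17 and 0.26 at the top doses, and UQCRFS1, the Rieske iron-sulfur protein, had 0.02 and -0.24 there but -0.47 and -0.35 at the middle doses, the lowest of complex III. Of the core subunits, UQCRC1 had 0.39 and 0.52 and UQCRC2 had -0.00 and -0.07. UQCC1 and UQCC2 act with each other in the synthesis of cytochrome b. UQCC1 had 0.31 and 0.63 with its brightest probe but -0.35 to -0.24 and -0.09 to 0.04 with its other 2 probes, and UQCC2 had -0.45 and -0.22. UQCRH shares its sequence nearly whole with UQCRHL, so that its signal is uncertain.

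Among the 26 complex IV genes the largest top-dose differences, by the brightest probe of genes well above background, lay with the factors that supply heme and copper. COX10 makes heme O, the step before the heme A of complex IV. On the EEDS arrays its signal was 8.40 with vehicle, 8.41 at the lowest dose, and 9.13 and 9.33 at the next ones, and on the helveticoside arrays it was 7.77, 7.81, 8.58 and 8.82. The gene thus lay at its vehicle's level at the lowest dose and was 1.91-fold and 2.07-fold higher at the top doses. The slopes of 0.35 ± 0.09 and 0.39 ± 0.09 missed the threshold (limma adjusted p of 0.0579 and 0.0521). COX10 was called with EEDS in 5 alternative settings and with helveticoside in 4, among them the signal as scanned, normexp correction and genes well above background only. The vehicle arrays themselves differed by -0.63 for COX10, and against the EEDS vehicle the ratio at 60 nM helveticoside was 0.42 in place of 1.05.

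COX15, which turns heme O into heme A, had log2 ratios of 0.17 and -0.02 at the top doses with its brightest probe, and -0.52 and -0.59 with its other probe. COX17, the copper chaperone of the intermembrane space, had its highest signal at the middle dose of both agents. It stood at 14.38 on the EEDS vehicle array and at 15.14, 15.58 and 15.27 at the doses, and at 14.55, 14.79, 15.39 and 15.32 on the helveticoside arrays. COX19, another copper-related protein of that space, went from 8.68 to 9.26, 9.62 and 9.16 with EEDS and from 8.71 to 8.95, 9.63 and 9.60 with helveticoside. Neither COX17 nor COX19 passed a trend test, with limma adjusted p-values of 0.138 to 0.394. COX11, which delivers copper to the catalytic subunit, had -0.43 and -0.47 at the top doses, and its other probe -0.50 and -0.97.

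The remaining assembly factors of complex IV differed less with their brightest probes. COX14 had 0.19 and 0.24 at the top doses and COX16 had 0.44 and 0.15. COX20, a chaperone of the second catalytic subunit, had 0.09 and -0.31 with its brightest probe and -1.10 and -1.24 with its other probe, which was also well above background on all arrays.

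Of the 10 common subunits of complex IV, 7 were higher at 20 μg/mL EEDS and 9 at 60 nM helveticoside, with medians of 0.34 and 0.36. COX8A, a small subunit, rose with both agents. Its signal was 16.50, 16.75, 16.85 and 17.14 over the EEDS series and 16.24, 16.44, 16.61 and 16.74 over the helveticoside series, a step up at every dose. The slope was 0.20 ± 0.03 per step for EEDS (limma adjusted p of 0.0173) and 0.17 ± 0.03 for helveticoside (0.0280), so that the top doses were 1.55-fold and 1.41-fold above vehicle. Both calls were lost with scaling to the 75th percentile and with linear dose, and that for helveticoside also without limma's trend and robust options. COX6A1 (0.67 and 0.39), COX6C (0.63 and 0.44) and COX7B (0.72 and 0.44) were also higher at the top doses, without passing the trend test, although COX6A1 was called with EEDS among genes well above background only. For COX6C and COX7B the helveticoside vehicle array was 0.39 and 0.54 above the EEDS vehicle array, so that their EEDS ratios were taken to the lower vehicle. COX4I1, COX6B1 and COX5A lay between -0.14 and 0.07 at the top doses.

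Several complex IV subunits have isoforms with a restricted expression, and most of these were dim here. COX7A1, COX7B2, COX8C and COX4I2 were below the call at both top doses and on both vehicle arrays, so no ratio is given for them, and for COX4I2 a bound of at least 1.3-fold above vehicle was had at 1.25 μg/mL EEDS. Their common partners COX7A2 (16.23 and 16.33), COX7B (14.39 and 14.93), COX8A and COX4I1 (15.16 and 15.03) were well above background on all arrays, with the vehicle levels given in log2 signal. Probes differ in how brightly they report, so these levels are not set against each other.

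COX6A2, the heart and skeletal muscle isoform of COX6A, was well above background on all arrays but differed most between the vehicle arrays. It had 6.29, 6.27, 6.18 and 6.48 over the EEDS series and 8.66, 8.57, 8.22 and 8.14 over the helveticoside series, so that the vehicles were 2.37 apart. COX6B2, known from testis, gave 13.56 with the EEDS vehicle and 13.22, 13.24 and 12.80 at the doses, and 12.97, 13.42, 12.88 and 12.58 in the helveticoside series. Its second probe went the other way, with log2 ratios of 0.44 and 0.77 at the top doses against -0.77 and -0.39 for the brightest probe. The direction of COX6B2 thus depends on the probe.

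**Figure D3:**
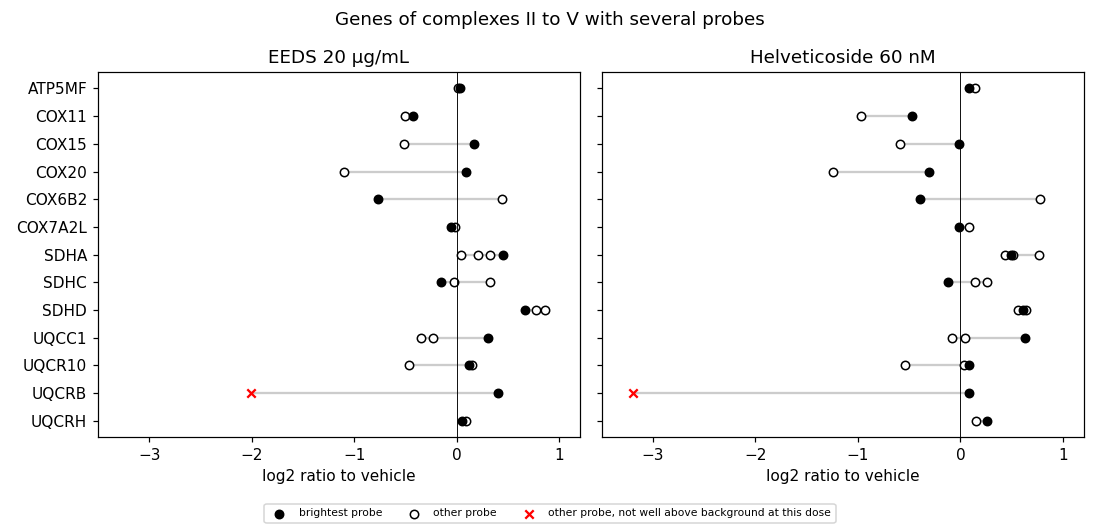
Log2 ratio at the top dose to vehicle (horizontal axis) for every probe of the 13 genes with more than 1 probe, for EEDS on the left and helveticoside on the right. Filled circles are the brightest probe, which stands for the gene, open circles are other probes, and crosses are a probe not well above background at that dose, whose plotted value is not a measured ratio. The 3 SDHD probes lie together between 0.56 and 0.86, while the probes of COX20, COX6B2 and UQCRB lie apart.

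Complex V is the ATP synthase. At the top doses most of its catalytic head genes lay below vehicle, except ATP5F1E, and most of its membrane genes above, except ATP5ME. The median over its 18 genes was 0.03 at 20 μg/mL EEDS and 0.06 at 60 nM helveticoside. Of the 5 genes of the F1 head, which carries the catalytic sites, 4 were lower at each top dose, with medians of -0.49 and -0.33, although the helveticoside median became 0.03 with scaling to the 75th percentile while that for EEDS became -0.22. Of the 6 membrane genes 5 were higher, with medians of 0.33 and 0.42.

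ATP5F1A, the alpha subunit of the head, fell with EEDS. Its signal was 14.96 with vehicle and 14.93, 14.74 and 14.42 at the doses, a slope of -0.18 ± 0.04 per step (limma adjusted p of 0.0388). In the helveticoside series it was 14.75, 14.63, 14.55 and 14.43, and the slope of -0.11 ± 0.04 did not pass (0.147). The signal was lower at each dose than at the one before with either agent, although with scaling to the 75th percentile the ratio at 60 nM helveticoside was 0.03. The EEDS call was lost under that scaling, with the signal as scanned, with normexp correction and without limma's trend and robust options.

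ATP5F1D, the delta subunit of the head's central stalk, had the lowest top-dose ratios of complex V. It gave 13.10, 12.95, 12.70 and 12.22 over the EEDS series and 12.96, 12.97, 12.83 and 12.25 over the helveticoside series, 1.85-fold and 1.63-fold below the vehicle at the top. Its slopes of -0.29 ± 0.07 and -0.23 ± 0.07 missed the threshold (limma adjusted p of 0.0541 and 0.110). The fall was called with EEDS in 5 of the alternative settings (the signal as scanned, normexp correction, genes well above background only, the deposited table and linear dose), and with helveticoside on the linear dose scale. ATP5F1C, the gamma subunit, had -0.49 and -0.38 at the top doses, and ATP5F1B, the catalytic beta subunit, had -0.01 and -0.11.

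ATP5F1E, the epsilon subunit beside delta in the central stalk, was the exception in the head. Its signal was 16.52 with the EEDS vehicle and 17.44, 17.45 and 17.40 at the doses, so that the whole difference was there at the lowest dose, whereas with helveticoside it was 16.88, 17.05, 17.22 and 17.47. The helveticoside vehicle array was 0.36 above the EEDS vehicle array, so the size of the EEDS difference depends on the vehicle used. ATP5PO, the peripheral stalk subunit that grips the head, was lower at the top, with 15.52, 15.59, 15.32 and 14.98 in the EEDS series and 15.53, 15.60, 15.29 and 14.91 in the helveticoside series. Neither passed the trend test (limma adjusted p of 0.0956 to 0.272), although with EEDS ATP5F1E was called with the signal as scanned, normexp correction and the deposited table, and ATP5PO with linear dose. The peripheral stalk as a group of 4 had medians of -0.03 and -0.11, which became 0.13 and 0.22 with scaling to the 75th percentile.

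The c ring, which turns with the proton flow, is encoded by 3 genes that make the same mature protein. ATP5MC3 rose with EEDS, with signals of 16.83, 17.03, 17.05 and 17.44 and a slope of 0.18 ± 0.04 per step (limma adjusted p of 0.0362). In the helveticoside series it was 16.66, 16.76, 16.80 and 16.99, with a slope of 0.10 ± 0.04 that did not pass (0.156). The EEDS call was lost with scaling to the 75th percentile and without limma's trend and robust options. ATP5MC1 had log2 ratios of -0.19 and -0.15 at the top doses, which became 0.02 and 0.25 with scaling to the 75th percentile. ATP5MC2 had 0.18 and 0.11.

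In the membrane part, the accessory subunits ATP5MK (0.71 and 0.55), ATP5MJ (0.58 and 0.75) and ATP5MG (0.49 and 0.47) were higher at both top doses. ATP5MG and its near-identical copy ATP5MGL (0.18 and 0.37) may share signal, which was not tested. ATP5MF had 0.03 and 0.08, and ATP5ME, which helps shape the dimer, had -0.33 and -0.43. None of the membrane genes passed the trend test with the main settings. Under alternatives ATP5MK was called with EEDS and ATP5MG and ATP5MJ with both agents, ATP5MG with helveticoside in 5 settings and ATP5MJ in 4.

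**Figure D4:**
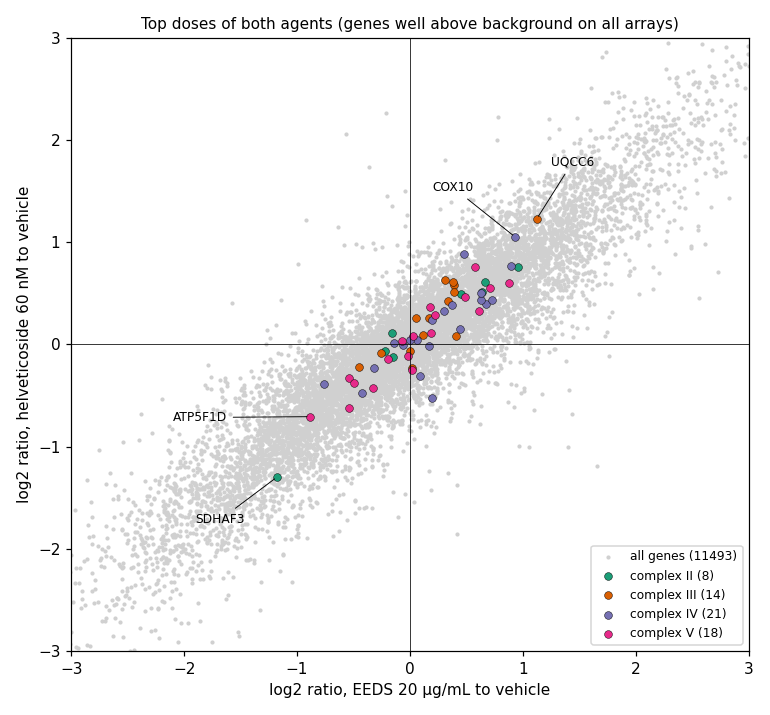
Log2 ratio at 20 μg/mL EEDS (horizontal axis) against that at 60 nM helveticoside (vertical axis), each to its own vehicle array, for genes well above background on all arrays; the axes stop at 3 on either side. Grey points are all 11493 genes and coloured points the 61 genes of complexes II to V, by complex. The coloured points lie along the diagonal, from SDHAF3 at the lower left to UQCC6 at the upper right.

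Over the 61 genes well above background, Pearson's r between the agents' top-dose log2 ratios was 0.90 and Spearman's rho 0.89 across genes, against 0.925 and 0.91 over 11493 genes. At the middle dose r was 0.86 and at the lowest dose 0.54. Genes are not independent replicates and all arrays were normalized together, so these are descriptions. Of the 61 genes, 52 had ratios of the same sign, and the ratios differed by a median of 0.13 and at most 0.72, for COX6A2. ATP5F1E, COX10, COX17, SDHAF1, SDHD and UQCC6 were over 1.5-fold higher with both agents, 6 of the 13 genes past this fold with EEDS and of the 10 with helveticoside. Over all genes well above background the overlap was 2159 of 2961 and of 2517, a larger share of each. ATP5F1D and SDHAF3 were over 1.5-fold lower with both, 2 of 3 and 2 of 3, against 2317 of 3096 and of 2643 over all genes. The doses of an extract and of a compound are in different units and were not compared in strength.

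Complex I genes and mitochondrial ribosomal protein genes had lower top-dose medians than the 66 genes of complexes II to V. Over 45 complex I genes the median top-dose ratio was -0.01 for EEDS and -0.05 for helveticoside, which became 0.175 and 0.30 with scaling to the 75th percentile, when the medians of complexes II to V became 0.24 and 0.43. In complex I, 1 gene rose and 6 fell in the EEDS trend, and 1 rose and 2 fell in the helveticoside trend. Among all genes, 7.28% rose and 7.86% fell with EEDS, and 5.5% rose and 5.81% fell with helveticoside. Over 76 mitochondrial ribosomal protein genes the medians were -0.24 and -0.30, which that scaling brought to -0.13 and -0.04, with 1 rising and 17 falling for EEDS and 1 and 10 for helveticoside. No test of the difference between these lists was made.

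**Figure D5:**
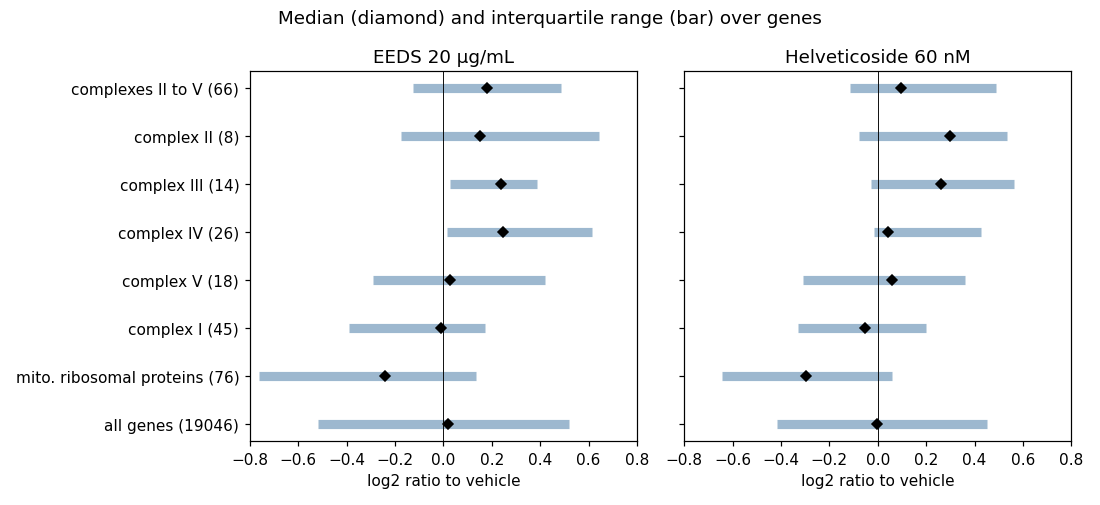
Median (diamond) and interquartile range (bar) of the top-dose log2 ratio over the genes of each list, with the number of genes in brackets, for EEDS on the left and helveticoside on the right. The medians of complexes II to V lie at 0.18 and 0.10, those of complex I at -0.01 and -0.05, which turn to 0.175 and 0.30 with scaling to the 75th percentile, and those of the mitochondrial ribosomal proteins at -0.24 and -0.30 (-0.13 and -0.04 with that scaling).

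Assembly factors named in other ways were more divided than those with SDHAF, UQCC or COX symbols. Of 19 measured, 3 rose and 3 fell in the trend of each agent. The shares of all genes were 7.28% and 7.86% for EEDS, and 5.5% and 5.81% for helveticoside. The medians of the 19 genes at the top were -0.27 and -0.16, which became -0.01 and 0.05 with scaling to the 75th percentile. TMEM242, which takes part in ATP synthase assembly, had the largest rise, with log2 ratios of 0.99, 1.78 and 2.48 for EEDS and 0.25, 1.32 and 2.27 for helveticoside (limma adjusted p of 0.0140 and 0.0182). CMC2 (1.25 and 1.27 at the top doses) and ATPAF2 (0.61 and 0.73), which helps assemble the F1 head, rose too. SURF1 (-1.18 and -1.14) and SCO2 (-1.72 and -1.17), which act in the assembly and copper loading of complex IV, fell with both agents, as did TTC19 (-0.60 and -0.71), a complex III factor. PET100, PET117 and TMEM70 had no matched probe.

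Cytochrome c itself, the carrier between complexes III and IV, had log2 ratios of 0.57, 1.18 and 1.16 for EEDS and -0.02, 0.42 and 0.73 for helveticoside (CYCS). CYCS rose with EEDS (limma adjusted p of 0.032) and did not pass with helveticoside (0.100). HCCS, which attaches heme to cytochrome c and c1, rose with both, reaching 1.18 and 1.23 (0.026 and 0.029). ATP5IF1, the inhibitor of ATP synthase, had -0.46 and -0.48 at the top doses and no trend that passed.

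Genes that control the transcription of respiratory genes were measured from a list of 13. Of these, 6 were over 1.5-fold higher and 2 lower at 20 μg/mL EEDS, against 23.1% and 23.2% of all genes. At 60 nM helveticoside 5 were higher and 1 lower, against 20.5% and 20.3%. Over 1.5-fold higher at both top doses were GABPB1 (2.34 and 1.395), a subunit of GABP, PPRC1 (1.18 and 0.89), a coactivator related to PGC-1, and TFAM (1.59 and 0.70) and TFB2M (1.005 and 0.77), which act on the mitochondrial genome. NRF1 was 1.35 higher at 20 μg/mL EEDS and at least 1.83-fold higher at 60 nM helveticoside, since its helveticoside vehicle array was not well above background. TFB1M, which methylates mitochondrial ribosomal RNA, was lower at both top doses (-1.68 and -1.41). PPARGC1B was lower at 20 μg/mL EEDS (-1.27) and had 0.14 at 60 nM helveticoside. Of the 13 genes, TFAM alone passed a trend test, with EEDS (limma adjusted p of 0.045). The TFAM vehicle arrays differed, at 12.09 for EEDS and 13.42 for helveticoside, and against the other vehicle the ratio at 20 μg/mL EEDS was 0.26 in place of 1.59. GABPA had log2 ratios of 0.33 and 0.07 at the top doses, YY1 0.83 and 0.54, and ESRRA 0.29 and 0.47. POLRMT had -0.07 and 0.42, and TEFM -0.19 and -0.08. PPARGC1A, which encodes PGC-1 alpha, was not well above background on any array.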

How the data were processed

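Per the labels and the study's methods, A549 RNA from 3 cultures per condition was pooled and hybridised with 1 dye to an Agilent array. For every spot the authors deposited intensity values from the scanner software (median signal, local background, and a background-subtracted processed signal) and its spot calls. They also deposited a table of linear intensity values, with 2427 blanks, which served as an alternative. Its values were compared with the median signal less the local background by rank only, which cannot show how they were normalized. The files used here carry no slide or scan information.

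Outlier and control spots were left out, and each probe's processed signal is the mean of its remaining spots. The 8 arrays were quantile-normalized, values under 1.4 times the local background were set to the higher of themselves and the lowest detected signal, and log2 was taken. Of 34127 probes, 22 without a usable spot on at least 1 array were left out, and 24812 were matched through their accessions to 19056 genes of GRCh38.p14, used for names and promoters. The brightest probe stood for each of 4797 genes with several. In all, 19046 genes passed the limit on at least 1 array of each series. A probe was well above background on an array where over 50% of its usable spots were called so. Where only 1 array of a ratio was, the brighter array was set against the higher of the dimmer array's own signal and its lowest signal among probes well above background.

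Dose trends came from limma 3.58.1, run in R 4.3.3 with statmod 1.5.0 and eBayes set to trend and robust, with an intercept and slope per series, 4 residual degrees of freedom and Benjamini-Hochberg adjustment over all genes at 0.05, and the fit was tested on simulated data. Other values used scipy 1.17.1, pandas 2.3.3 and numpy 2.4.6 under Python 3.11.15. The genes named with full values are those past 1.5-fold in 1 direction at both top doses, the 3 highest and 3 lowest at each, those with a called trend, isoform genes, and up to 6 regulators past 1.5-fold at both top doses. The other genes of complexes II to V and of the lists given were named after their values were seen. The genes and lists were chosen with earlier results of these data known. Alternatives were the signal as scanned, normexp (offset 50), 75th percentile scaling, quantile normalization within series, other filters, the mean of all probes, the deposited table, the other series' vehicle, each series alone, each dose left out, limma without trend and robust estimation, and linear dose.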

Additional observations from a re-analysis of the deposited data

Results flagged for a closer look

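COX5A, a common subunit of complex IV, lay below its vehicle at all 3 doses of EEDS and above it at all 3 doses of helveticoside. The log2 ratios were -0.29, -0.11 and -0.14 (-0.1433 unrounded) with EEDS and 0.08, 0.05 and 0.01 (0.0112) with helveticoside. This opposition in sign was not tested as such. The limma test of the difference between the agents' slopes passed for 0 genes of complexes II to V (smallest adjusted p of 1), and the vehicle arrays differed by a median of 0.14 in size over the 66 genes.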

How the results depend on the processing

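The counts and medians over the 66 genes were recomputed under each alternative that bears on them. The difference of the slopes was called for 0 genes of complexes II to V in each fit that holds it; it was not tested with each series alone or with the other series' vehicle. With the signal as scanned, and likewise with normexp, 0 genes in place of 1 were over 1.5-fold lower at 5 μg/mL EEDS and at 3.75 nM helveticoside, 1 in place of 2 was over 2-fold higher at 60 nM, and 9 and 7 genes had a called trend in place of 5 and 4. With scaling to the 75th percentile the medians were 0.44 and 0.24 at 5 and 20 μg/mL EEDS and 0.32, 0.47 and 0.43 at the rising helveticoside doses (0.4375, 0.241, 0.3229, 0.474 and 0.435). Over 1.5-fold higher were then 22 genes at 5 μg/mL EEDS, and 2, 26 and 27 at the helveticoside doses. These counts have no share of all genes under the same scaling beside them. Past 2-fold were 2 higher and 2 lower genes at 20 μg/mL and 4 higher at 60 nM. With quantile normalization within series, 2 genes were over 2-fold higher at 20 μg/mL and 1 at 60 nM. With only the genes that every array showed well above background, 0 were over 1.5-fold lower at 5 μg/mL and at 3.75 nM, and 12 and 7 genes had a called trend. With the mean of all probes, 2 and 6 genes were over 1.5-fold lower at 15 and 60 nM and 2 were over 2-fold lower at 60 nM. With the deposited table the median at 20 μg/mL was 0.09 (0.094), 5 genes were lower and 9 higher, 0 were lower at 3.75 nM, 1 was over 2-fold higher at 60 nM, and 9 had a called EEDS trend.

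Against the other series' vehicle the medians were 0.26 and 0.31 at 1.25 and 5 μg/mL EEDS and 0.08 at 15 nM (0.2614, 0.3053 and 0.076). Over 1.5-fold lower were then 1 gene at 1.25 μg/mL and 4, 2 and 6 at the helveticoside doses, 4 were higher at 3.75 nM, and 2 were over 2-fold lower and 5 higher at 20 μg/mL. The ratio of NRF1 at 60 nM turned to -0.34. The complex II medians at 3.75, 15 and 60 nM turned to -0.10, -0.04 and -0.03, and those of complex V at 15 and 60 nM to -0.02 and -0.03. The cause of these shifts was not tested. The called trends numbered 0 and 0 with each series' own 4 arrays alone, and without the lowest, the middle or the top dose. These fits hold fewer arrays and called 0 of 19046 genes with limma, and the genes of complexes II to V at an unadjusted p under 0.05 were then 10 to 18 for EEDS and 12 to 25 for helveticoside. Trends called under an alternative and not with the main settings included UQCC3 and UQCRC1 (helveticoside, 75th percentile) and COX20 and UQCRB (helveticoside, mean of all probes). Without trend and robust estimation 3 genes had a called EEDS trend, and with linear dose 1 had a called helveticoside trend. With no filter nothing moved. No paired analysis was possible because every dose had 1 array. The number of arrays limits the precision, and 5 dim genes have no ratio at either top dose.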
